A study of Mus musculus with 12 samples.

Results

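Lpcat1, Lpcat2, Lpcat3, Lpcat4, Mboat1, Mboat2 and Mboat7 encode enzymes that attach a fatty acyl chain to a lysophospholipid. They were taken by gene symbol from RNA-seq read counts of isolated mouse glomeruli. All 7 genes were listed in the tables of both arms of the study, among 16298 genes listed in any table, so none was missing. The family was chosen by the fold changes and adjusted p-values of Lpcat4 and Mboat2 between knockout and control mice in these same libraries, and its other genes by their names, so the knockout comparisons below describe these genes and do not test them.

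The study compared podocyte-specific DACH1 knockout mice (KO) with control mice, after streptozotocin (STZ) and untreated. There were 4 groups of 3 mice each, namely KO after STZ, control after STZ, KO at baseline and control at baseline. All mice had a C57BL/6 background, and baseline mice were 10 weeks old. STZ, which destroys the insulin-producing beta cells, was injected intraperitoneally at 50 µg/g per day on 5 consecutive days, and glomerular RNA was taken 10 days later. The age of the STZ mice, the Cre driver, the alleles of the control mice and the meaning of "hetN" in the titles of the STZ controls are not given by the labels. DACH1 is a nuclear factor of the dachshund family and is made by podocytes, the epithelial cells that cover the glomerular capillaries.

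Phospholipids are remodelled after they are made. In the Lands cycle a phospholipase A2 removes the acyl chain at the sn-2 position, and a lysophospholipid acyltransferase puts another chain in its place, which changes how saturated the membrane lipids are. The enzymes belong to separate protein families. Lpcat1, Lpcat2 and Lpcat4 are of the AGPAT type, and Lpcat3, Mboat1, Mboat2 and Mboat7 are membrane-bound O-acyltransferases (MBOAT). The names cross over in the literature, since RefSeq gives LPCAT4 as a synonym of Mboat2 and LPEAT2 and Agpat7 as synonyms of Lpcat4. Here Lpcat4 is the AGPAT-type gene on chromosome 2 (GRCm38, GENCODE M21 gene model, chr2:112239468-112247111, plus strand), and Mboat2 is the MBOAT gene on chromosome 12 (chr12:24830879-24964397, plus strand).

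The promoters of the 2 genes that were higher in KO glomeruli, Lpcat4 and Mboat2, are shown with that of Lpcat3, which was the highest per kilobase in control glomeruli and did not pass the test in any comparison. Each is a RefSeq GRCm38.p6 window of 300 bases on the plus strand that holds the RefSeq gene start. The windows are at chr2:112239591-112239890 for Lpcat4, chr12:24831349-24831648 for Mboat2 and chr6:124662854-124663153 for Lpcat3. The RefSeq starts are 112239841, 24831435 and 124663094, so most of the window lies upstream for Lpcat4 and Lpcat3 and downstream for Mboat2. In the GENCODE M21 models, which start at 112239468 and 24830879, the windows of Lpcat4 and Mboat2 lie within the gene. Capitals mark the GC box (GGGCGG or CCGCCC) and the CCAAT box (CCAAT or ATTGG), and neighbouring matches run together.
Lpcat4: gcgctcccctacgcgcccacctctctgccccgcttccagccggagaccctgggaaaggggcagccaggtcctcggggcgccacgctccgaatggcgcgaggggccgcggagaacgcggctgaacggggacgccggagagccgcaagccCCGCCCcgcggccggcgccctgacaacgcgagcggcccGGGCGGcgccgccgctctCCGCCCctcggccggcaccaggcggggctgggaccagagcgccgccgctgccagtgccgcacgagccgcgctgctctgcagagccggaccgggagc
Mboat2: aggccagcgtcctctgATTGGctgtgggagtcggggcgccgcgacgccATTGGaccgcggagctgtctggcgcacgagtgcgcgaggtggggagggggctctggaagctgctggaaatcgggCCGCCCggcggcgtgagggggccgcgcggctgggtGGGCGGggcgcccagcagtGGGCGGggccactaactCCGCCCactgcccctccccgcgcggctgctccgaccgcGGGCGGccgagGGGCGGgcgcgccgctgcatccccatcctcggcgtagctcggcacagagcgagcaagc
Lpcat3: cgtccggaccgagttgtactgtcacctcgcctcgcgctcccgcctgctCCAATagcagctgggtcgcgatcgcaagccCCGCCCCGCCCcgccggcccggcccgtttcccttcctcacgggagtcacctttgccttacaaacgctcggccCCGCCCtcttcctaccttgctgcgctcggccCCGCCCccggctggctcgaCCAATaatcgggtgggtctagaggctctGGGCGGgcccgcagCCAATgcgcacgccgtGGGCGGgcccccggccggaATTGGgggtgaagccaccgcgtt
All 7 windows held more CG dinucleotides than the median of 7 over 32851 promoters. There were 45 in Lpcat4, 40 in Mboat2, 36 in Lpcat3, 29 in Mboat1, 25 in Lpcat1, 23 in Mboat7 and 15 in Lpcat2. The GC box occurred 3 times in Lpcat4 and 6 times in Mboat2 and in Lpcat3, and 35.7% of all promoters held at least 1. The CCAAT box occurred 2 times in Mboat2, 4 times in Lpcat3 and not in the window of Lpcat4, and 37.4% of all promoters held it. The forkhead core TGTTTAC (reverse GTAAACA), present in 3.65% of promoters, and the E-box CACGTG, present in 7.15%, were found in none of the 7 windows. The TATA box (TATAAA or TTTATA, 13.6% of promoters) was found in that of Lpcat2 only. The other 4 promoters held 1 to 3 GC boxes each. These matches are letters in a window, not sites of binding.

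Library totals were 66100000 to 78600000 counts after STZ and 22600000 to 24900000 at baseline, and the 7 genes had 59 to 8459 counts per library. Treatment therefore went with depth and with a separate set of tables, and the 3 cannot be told apart in any comparison of STZ with baseline. Dach1 itself stood at 55.8, 65.9 and 67.0 CPM (counts per 1000000 counts of the library, after TMM scaling) in KO and 145, 175 and 183 CPM in control glomeruli after STZ, and at 47.2, 56.7 and 59.3 CPM in KO and 106 to 188 CPM in control glomeruli at baseline. All 10 podocyte markers were listed and none was at 0 in any group. Their summed level was 31100 to 32500 CPM in KO and 30100 to 36700 CPM in control glomeruli after STZ, and 18600 to 22800 CPM in KO and 20500 to 28000 CPM in control glomeruli at baseline. In whole glomeruli, fewer cells of a type and less RNA per cell cannot be told apart. Marker sums also show tubule carry-over, with the 17 proximal tubule markers summing to 2020 to 10800 CPM after STZ and 1700 to 23600 CPM at baseline.

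Lpcat4 was several times higher in KO than in control glomeruli in both arms, and Mboat2 followed it at a lower level. Lpcat4 encodes an acyltransferase that acts on lysophosphatidylethanolamine and lysophosphatidylcholine. After STZ its level was 99.95, 107 and 114 CPM in KO glomeruli, against 13.6, 13.6 and 15.6 CPM in control glomeruli. At baseline it was 68.0, 74.1 and 68.8 CPM in KO glomeruli, against 17.6, 15.0 and 14.1 CPM in control glomeruli. All 6 KO libraries lay above all 6 control libraries, and in each group the 3 mice were close together. The log2 fold change, KO over control, was 2.91 (SE 0.12, 7.54-fold) after STZ and 2.17 (SE 0.12, 4.51-fold) at baseline.

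Mboat2 encodes an enzyme that prefers oleoyl chains and acts on lysophosphatidylethanolamine and lysophosphatidylcholine. After STZ it had 59.6, 50.1 and 46.1 CPM in KO glomeruli, against 10.5, 12.4 and 11.7 CPM in control glomeruli. At baseline it had 32.1, 33.9 and 25.3 CPM in KO glomeruli, against 8.93, 11.8 and 11.97 CPM in control glomeruli. Here too no KO library overlapped a control library in either arm. The log2 fold change was 2.18 (SE 0.14, 4.52-fold) after STZ and 1.48 (SE 0.17, 2.80-fold) at baseline.

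**Figure D1:**
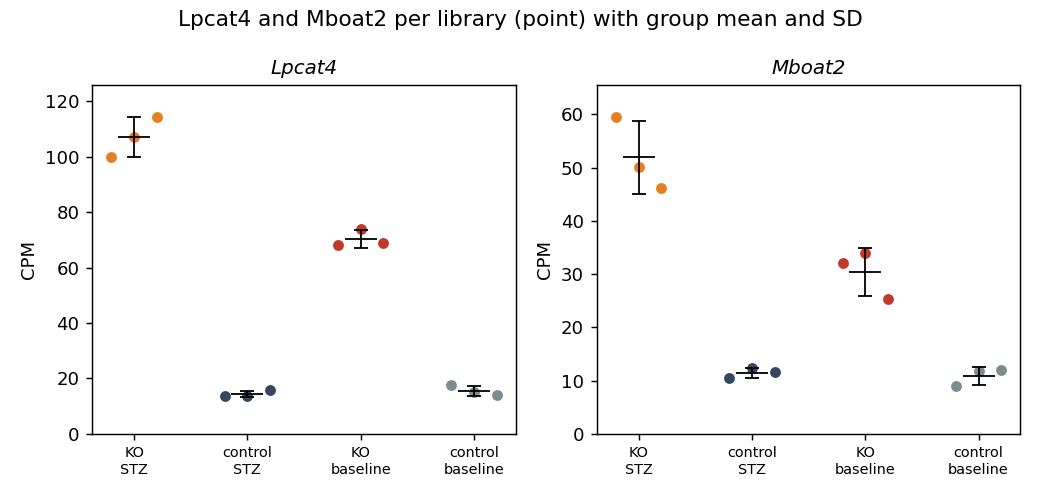
Level of Lpcat4 (left) and Mboat2 (right) in CPM, 1 point per library, with the mean and SD of the 3 mice in each group. The KO libraries, at 68.0 to 114 CPM for Lpcat4 and 25.3 to 59.6 CPM for Mboat2, all sit above the control libraries, and the KO libraries after STZ sit above the KO libraries at baseline.

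With edgeR's quasi-likelihood test and Benjamini-Hochberg adjustment over all genes, 2 of the 7 genes were past an adjusted p of 0.05 after STZ and 2 at baseline, all of them higher in KO. Over all genes tested, 1.07% of 16291 were called after STZ, with 0.841% higher, and 0.230% of 13475 at baseline, with 0.171% higher. KO libraries lay above all control libraries for 3 of the 7 genes after STZ and 2 at baseline, beside 8.62% and 4.98% of all genes. These counts are what the choice of genes rests on, and nothing is read from them. Lpcat4 had an adjusted p of 0.000294 after STZ and 0.00333 at baseline, and Mboat2 one of 0.00169 and 0.0489. By log2 fold change Lpcat4 was 29th and Mboat2 42nd of the 137 genes called higher after STZ, and they were 12th and 20th of 23 at baseline. Among the 7 genes nothing lay near the threshold on its other side, the next smallest adjusted p being 0.489 after STZ and 0.802 at baseline, both of Lpcat3. The baseline call of Mboat2 was lost when any single library was left out, with an adjusted p of 0.0697 to 0.221 and a log2 fold change of 1.36 to 1.60. It was also lost with the level of immune cell markers or the sex of the mice in the fit, with an adjusted p of 0.0620 and 0.153.

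The other AGPAT-type genes did not pass the test in either KO comparison. Lpcat1 encodes the enzyme that makes dipalmitoyl phosphatidylcholine, the main lipid of lung surfactant. Its level was 30.2, 32.3 and 25.3 CPM in KO and 29.8, 41.4 and 26.7 CPM in control glomeruli after STZ. At baseline it was 61.3, 47.8 and 42.6 CPM in KO and 53.7, 53.1 and 44.6 CPM in control glomeruli. KO and control libraries overlapped in both arms, with log2 fold changes of -0.15 (SE 0.20) after STZ and 0.00 (SE 0.16) at baseline.

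Lpcat2 encodes an enzyme of inflammatory cells that also makes platelet-activating factor. It was among the lowest of the 7 genes, at 5.22, 3.92 and 10.1 CPM in KO and 10.8, 5.30 and 13.2 CPM in control glomeruli after STZ. At baseline it had 3.14, 4.63 and 6.34 CPM in KO and 2.56, 2.66 and 11.4 CPM in control glomeruli. The spread within groups was about as large as or larger than the difference between them, and the log2 fold changes of -0.60 (SE 0.44) after STZ and -0.23 (SE 0.65) at baseline had the largest errors of the 7 genes. Without the third baseline control library the baseline value was 0.85. The summed level of the 10 immune cell markers listed in both arms ranged from 169 to 478 CPM in KO and 221 to 1100 CPM in control glomeruli after STZ, and from 94.9 to 122 CPM in KO and 81.8 to 133 CPM in control glomeruli at baseline. No immune marker was at 0 in a group, and their part in the values of Lpcat2 was not tested.

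Lpcat3 encodes the MBOAT enzyme that puts linoleoyl and arachidonoyl chains into phosphatidylcholine and is a target of the liver X receptors in liver and intestine. It had 95.5, 79.4 and 82.1 CPM in KO and 70.6, 59.3 and 73.7 CPM in control glomeruli after STZ. At baseline it had 65.4, 93.5 and 104 CPM in KO and 70.7, 69.5 and 78.3 CPM in control glomeruli. After STZ the KO libraries all lay above the control libraries, and at baseline the groups overlapped. The log2 fold change was 0.34 (SE 0.13) after STZ and 0.27 (SE 0.18) at baseline and did not pass the test. At baseline the proximal tubule markers had a mean log2 CPM of 5.96, 8.32 and 9.03 in KO and 6.58, 7.59 and 6.99 in controls. After STZ they had 8.23, 6.73 and 6.62 in KO and 6.35, 7.16 and 8.37 in controls, mice in the same order as above. With that marker mean in the fit, the log2 fold change of Lpcat3 was 0.34 after STZ, as without it, and 0.10 at baseline. The part of tubule carry-over in the values of Lpcat3 was not tested. A stretch of 334 bases, 10.2% of the exon length of Lpcat3, is shared with Emg1 on the other strand, and the strand handling of the counting is not given in the sources used here.

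Mboat1 encodes an enzyme for lysophosphatidylethanolamine and lysophosphatidylserine and is a close relative of Mboat2. It had 4.01 to 7.43 CPM over the 6 STZ libraries and 5.18 to 9.48 CPM over the 6 baseline libraries, with KO and control overlapping in both arms. Its log2 fold change was 0.14 (SE 0.26) after STZ and -0.31 (SE 0.24) at baseline. Mboat7 encodes the enzyme that puts arachidonoyl chains into phosphatidylinositol. It averaged 64.3 ± 8.97 CPM in KO and 54.0 ± 4.89 CPM in control glomeruli after STZ, and 64.7 ± 2.44 CPM in KO and 60.1 ± 4.18 CPM in control glomeruli at baseline (SD, n = 3 each). The log2 fold changes were 0.26 (SE 0.13) after STZ and 0.11 (SE 0.09) at baseline, and neither passed.

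**Figure D2:**
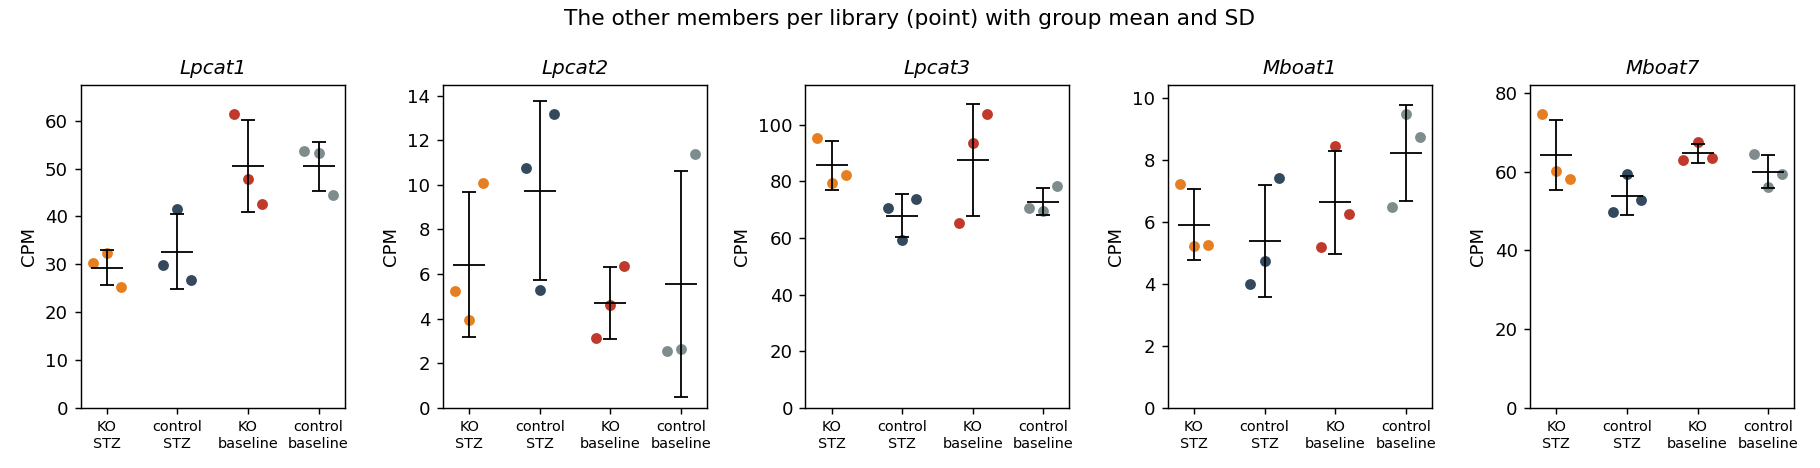
Level in CPM of Lpcat1, Lpcat2, Lpcat3, Mboat1 and Mboat7, 1 point per library with the group mean and SD. KO and control libraries overlap in every panel and arm except for Lpcat3 after STZ, where KO libraries sit at 79.4 to 95.5 CPM and control libraries at 59.3 to 73.7 CPM.

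To compare levels between the genes, CPM was divided by the length of the merged exons of each gene in kilobases. Merged exons take in all transcripts of a gene model, with 9566 bases for Mboat2 and 8339 for Mboat7, against 3268 for Lpcat3 and 2823 for Lpcat4. The annotation used for the counts is not given, so the order of the genes and their shares of the sum depend on these lengths. In KO glomeruli after STZ, Lpcat4 was the highest at 38.0 CPM per kilobase, above Lpcat3 at 26.2, and no library of one overlapped a library of the other. In control glomeruli after STZ the order was Lpcat3 at 20.8, Lpcat1 at 7.05, Mboat7 at 6.47 and Lpcat4 at 5.06 CPM per kilobase, with the values of Lpcat1 and Mboat7 overlapping. In KO glomeruli at baseline, Lpcat3 at 26.8 and Lpcat4 at 24.9 CPM per kilobase overlapped and were followed by Lpcat1 at 10.9. In control glomeruli at baseline, Lpcat3 at 22.3 CPM per kilobase stood above Lpcat1 at 10.9, Mboat7 at 7.20 and Lpcat4 at 5.52, none overlapping its neighbour. Mboat2 had the lowest mean of the 7 in both control groups, at 1.20 CPM per kilobase after STZ and 1.14 at baseline. In CPM not divided by length, the means of Lpcat2 and Mboat1 were below that of Mboat2 in both control groups. Its control libraries overlapped those of Mboat1 after STZ and those of Lpcat2 at baseline, where Lpcat2 ran from 0.755 to 3.36. In KO glomeruli Mboat2 was at 5.43 CPM per kilobase after STZ, overlapping Lpcat1 at 6.32. At baseline it was at 3.18 in KO glomeruli, above Mboat1 at 1.81 and Lpcat2 at 1.39.

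The make-up of the family differed between the genotypes, which follows from the values that chose the genes. Lpcat4 made up 43.6% ± 3.72 of the summed CPM per kilobase of the 7 genes in KO glomeruli after STZ and 11.3% ± 0.428 in control glomeruli after STZ. At baseline it made up 32.5% ± 1.68 in KO and 10.9% ± 1.42 in control glomeruli (SD, n = 3 each). Mboat2 contributed 6.22% ± 0.707 in KO and 2.68% ± 0.270 in control glomeruli after STZ, and 4.17% ± 0.731 in KO and 2.23% ± 0.344 in control glomeruli at baseline. The sum of all 7 was 87.2 ± 2.77 CPM per kilobase in KO and 44.9 ± 2.14 in control glomeruli after STZ, and 76.7 ± 5.35 in KO and 50.9 ± 1.66 in control glomeruli at baseline. Without Lpcat4 and Mboat2, the sum of the other 5 was 43.8 ± 3.88 CPM per kilobase in KO and 38.6 ± 1.75 in control glomeruli after STZ, and 48.7 ± 4.82 in KO and 44.3 ± 1.92 in control glomeruli at baseline. Most of the difference in the sum was in Lpcat4. The ratio of Lpcat4 to Mboat2 per kilobase was 7.12 ± 1.37 in KO and 4.22 ± 0.428 in control glomeruli after STZ, and 7.93 ± 1.11 in KO and 5.01 ± 1.47 in control glomeruli at baseline.

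**Figure D3:**
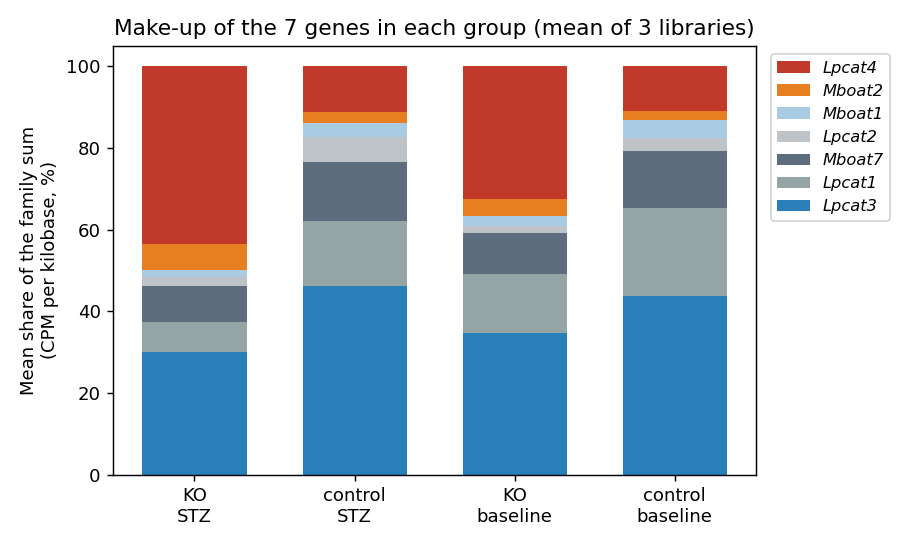
Mean share (%) of each of the 7 genes in their summed CPM per kilobase, 1 stacked bar per group (3 libraries each). Lpcat4, the top block, takes 43.6% in KO after STZ and 32.5% in KO at baseline, against 11.3% and 10.9% in the 2 control groups.

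The comparison of STZ with baseline was not used to choose the genes, but it contains the KO libraries that were. In KO glomeruli Lpcat4 and Mboat2 were higher after STZ than at baseline, and in control glomeruli neither passed the test. Lpcat4 averaged 107 ± 7.26 CPM in KO glomeruli after STZ and 70.3 ± 3.29 CPM in KO glomeruli at baseline, a log2 fold change of 0.61 (SE 0.11, 1.53-fold, adjusted p = 0.0225, edgeR). Mboat2 averaged 51.9 ± 6.93 CPM in KO glomeruli after STZ and 30.4 ± 4.53 CPM in KO glomeruli at baseline, a log2 fold change of 0.77 (SE 0.16, 1.71-fold, adjusted p = 0.0377, edgeR). For both genes the 3 STZ libraries lay above the 3 baseline libraries, as was so for 12.9% of all genes. The 2 of 7 genes called stand beside 1.86% of 13475 genes called, with 1.34% higher. The KO libraries after STZ are the higher group here and in the comparison by which the 2 genes were chosen. Their p-values and this count are therefore not independent of that choice, and nothing is read from the count. The summed podocyte markers moved the same way, at 31100 to 32500 CPM in KO glomeruli after STZ and 18600 to 22800 CPM in KO glomeruli at baseline, and their part in these values was not tested. The 10 immune cell markers did too, at 169 to 478 CPM after STZ and 94.9 to 122 CPM at baseline, and 1 of 3 KO mice after STZ and 2 of 3 at baseline were female. Both marker sums were also higher after STZ in control glomeruli, where Lpcat4 and Mboat2 were not called. The podocyte sum there was 30100 to 36700 CPM after STZ and 20500 to 28000 CPM at baseline. The immune sum was 221 to 1100 CPM after STZ and 81.8 to 133 CPM at baseline. Both calls were lost with the immune marker level in the fit (adjusted p 0.0854 for Lpcat4 and 0.0811 for Mboat2) and when only the 6 KO libraries were fitted (0.102 and 0.131). With sex in the fit Mboat2 lost its call (adjusted p 0.0852) and Lpcat4 kept it (0.0392). Leaving out 1 of the 6 KO libraries gave an adjusted p of 0.0426 to 0.123 for Lpcat4 and 0.0622 to 0.142 for Mboat2, so that only the loss of the first or the second KO library after STZ kept a call, that of Lpcat4.

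In control glomeruli Lpcat4 averaged 14.3 ± 1.18 CPM after STZ and 15.6 ± 1.82 CPM at baseline, a log2 fold change of -0.13 (SE 0.11). Mboat2 averaged 11.5 ± 0.938 CPM after STZ and 10.9 ± 1.70 CPM at baseline, a log2 fold change of 0.08 (SE 0.16). The libraries of the 2 control groups overlapped for both genes. None of the 7 genes was called in controls by edgeR or by DESeq2, against 0.512% of all genes by edgeR and 561 genes by DESeq2. Unadjusted, edgeR had 2 of the 7 genes (Lpcat1 and Mboat1) and 2004 of all 13475 genes under 0.05.

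Whether the response to STZ differed between the genotypes was tested as an interaction over all 12 libraries. The interaction is also the difference between the KO effects of the 2 arms, by which Lpcat4 and Mboat2 were chosen. The p-values of these 2 genes are therefore not independent of that choice. For Lpcat4 the log2 difference of the 2 responses, KO minus control, was 0.74 (SE 0.15, unadjusted p = 0.000583, adjusted p = 0.524, edgeR). For Mboat2 it was 0.69 (SE 0.22, unadjusted p = 0.0101, adjusted p = 0.975, edgeR). Neither passed after adjustment over 13475 genes, of which 0.00742% were called, so a difference in response between the genotypes was not shown by this test. DESeq2 gave Lpcat4 an adjusted p of 0.00654, the only one of the 7 among the 31 genes it called. Unadjusted, edgeR had 2 of the 7 genes and 494 of all genes under 0.05.

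Lpcat1 was lower after STZ in both genotypes without passing the adjusted threshold in either. In KO glomeruli it was at 25.3 to 32.3 CPM after STZ and 42.6 to 61.3 CPM at baseline, or -0.79 on the log2 scale (SE 0.19, edgeR adjusted p = 0.0649). In control glomeruli it was at 26.7 to 41.4 CPM after STZ and 44.6 to 53.7 CPM at baseline, or -0.63 on the log2 scale (SE 0.19, edgeR adjusted p = 0.162). STZ and baseline libraries did not overlap in either genotype, and 9.58% of all genes in KO and 8.73% in controls were lower without overlap. In KO glomeruli Lpcat1 passed with DESeq2 (adjusted p = 0.00696, among 794 genes called) and with the proximal tubule markers in the edgeR fit (0.0271). It did not pass with the immune markers (0.212) or sex (0.118) in the edgeR fit. Nor did it with any single KO library left out (0.0888 to 0.272). With sex in the fit the log2 fold change was -0.69 in KO and -0.44 in control glomeruli. Its median was 53.1 CPM in female and 30.2 CPM in male libraries, which overlapped. Females were 2 of 3 mice in each baseline group, 1 of 3 in KO and 0 of 3 in controls after STZ. The summed level of the 8 glomerular endothelial markers was lower after STZ as well, at 5030 to 6400 CPM after STZ and 7850 to 10400 CPM at baseline in KO glomeruli, and at 5440 to 8720 CPM after STZ and 9060 to 9540 CPM at baseline in control glomeruli. That of the 7 mesangial markers was 2110 to 3080 CPM after STZ and 3400 to 3770 CPM at baseline in KO glomeruli, and 1590 to 2510 CPM after STZ and 3240 to 4180 CPM at baseline in control glomeruli. The part of either cell type or of sex in Lpcat1 was not tested. The other 4 genes had log2 fold changes of -0.17 to 0.45 in KO and -0.61 to 0.82 in control glomeruli, none of which passed.

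**Figure D4:**
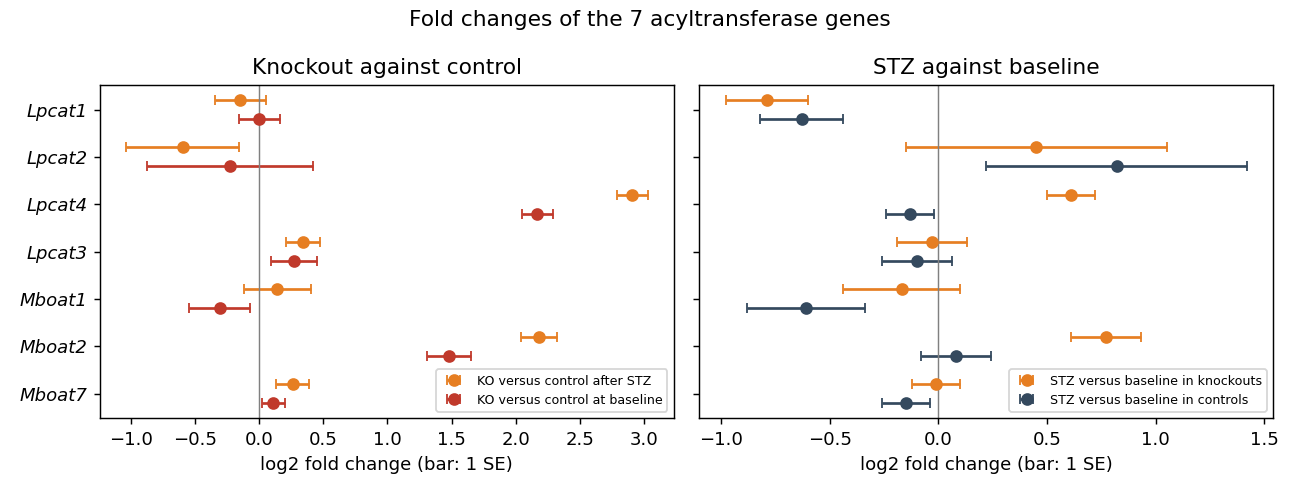
Log2 fold changes of the 7 genes with 1 SE, for KO against control (left) and STZ against baseline (right). Lpcat4 and Mboat2 stand to the right at 1.48 to 2.91 in the left panel and at 0.61 and 0.77 for knockouts in the right panel, and Lpcat1 stands to the left at -0.79 and -0.63 in the right panel. For controls in the right panel, Lpcat2 is at 0.82 (SE 0.60) and Mboat1 at -0.61 (SE 0.27).

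Lpcat4 and Mboat2 were compared with 12902 other genes by the root mean square difference of log2 CPM over the 12 libraries, each gene centred on its mean in each arm. The 5 genes nearest to Lpcat4 were Frem1, a basement membrane protein gene, at 0.23, Sorcs1, a sorting receptor gene, at 0.26, Txlnb at 0.27, Gabrb1, a GABA-A receptor subunit gene, at 0.29, and Ptgfr, the prostaglandin F receptor gene, at 0.30. Nearest to Mboat2 were Steap2, a metalloreductase gene, at 0.22, Gpc3, which encodes the heparan sulfate proteoglycan glypican-3, at 0.26, Eya4, which encodes a transcriptional coactivator, at 0.26, Fbxl12os at 0.30 and Cyp27a1, which encodes sterol 27-hydroxylase, at 0.32. Mboat2 was the 11th nearest to Lpcat4 at 0.42, and Lpcat4 the 27th nearest to Mboat2. The other members ranked between 644th (Lpcat3) and 12527th (Lpcat2) from Lpcat4. All these distances share the same 12 libraries, so that any gene with a like difference between the genotypes comes out near.

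Lists of other glycerolipid acyltransferases, other MBOAT enzymes, phospholipases A2, lysophospholipases, acyl-CoA synthetases, enzymes of phospholipid synthesis and genes of platelet-activating factor held 76 genes tested after STZ and 68 at baseline. In KO against control, 1 of the 76 was called higher and none lower after STZ, and none of the 68 at baseline, with medians of 0.05 and 0.10 on the log2 scale beside -0.02 and 0.01 over all genes. In KO against control, none had a log2 fold change as large in size as that of Mboat2 in either arm. Mboat2 was chosen by its fold change in these same comparisons, so nothing is read from this. The gene called was Lclat1, whose product acylates lysocardiolipin and lysophosphatidylinositol. It had 68.5, 62.2 and 66.3 CPM in KO and 35.1, 38.7 and 41.2 CPM in control glomeruli after STZ, or 0.78 on the log2 scale (SE 0.11, edgeR adjusted p = 0.0298). At baseline it had 52.6, 57.4 and 61.3 CPM in KO and 44.6, 43.1 and 43.9 CPM in control glomeruli, or 0.38 on the log2 scale (SE 0.09, edgeR adjusted p = 0.349). Its KO and control libraries did not overlap in either arm. Among the 68 genes none was called for STZ against baseline in either genotype, or for the interaction. In size, 51 of the 68 had a larger log2 value than Mboat2 for STZ against baseline in controls, where Mboat2 was at 0.08, against 1 in KO glomeruli and 7 for the interaction.

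Of the listed genes next to Lpcat4 and Mboat2 on their chromosomes, 3 were tested in both arms, and none of them passed the test in either KO comparison. Nop10, 14.8 kb beyond Lpcat4, had log2 fold changes of 0.13 after STZ and 0.18 at baseline. Kidins220, 10.5 kb beyond Mboat2, had 0.10 after STZ and 0.02 at baseline, and Rrm2, 117 kb before Mboat2, had 0.10 and 0.49. Olfr1283, 869 kb before Lpcat4, had 0.02 after STZ and was not tested at baseline. In the gene models Lpcat4 shares no exon bases with another gene, and Mboat2 shares 107 bases (1.12% of its exon length) with 2900060N12Rik on the other strand, which is not listed in the tables.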

How the data were processed

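RNA-seq of isolated glomeruli was used as deposited, 1 table per library. The values are estimated counts deposited by the authors, of which 10.5% to 11.5% per library end in 0.5. BWA and mm10 appear in the submitters' processing notes without a role, and no source used here gives the counting tool, annotation or strand handling. Counts were rounded, and 18 blank values were taken as 0. Groups came from the labels, 3 mice in each of 4 groups. No replicate pair agreed within sampling noise.

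The KO comparisons were fitted on the 6 libraries of each arm, and the STZ comparisons and the interaction on all 12 libraries with 4 group means over genes listed in both arms. The fits used edgeR 4.0.16 in R 4.3.3 (filterByExpr, TMM, quasi-likelihood F test), with Benjamini-Hochberg adjustment over all genes and a threshold of 0.05. All 7 genes passed the filter. The SE comes from the fold change and its F statistic. CPM values use TMM factors over all 12 libraries, and log2 CPM a prior count of 2. Exon lengths and gene positions come from GENCODE M21, and promoters from RefSeq GRCm38.p6.

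The genes and lists were chosen with earlier results of these data known. The genes named are the 7, the 5 nearest to each of Lpcat4 and Mboat2, called list genes, and the neighbours on the chromosome. DESeq2 1.42.0, other normalization and filters, marker and sex covariates and leaving out each library were tried as alternatives. The edgeR fits were checked on simulated data, where they recovered most of the large changes and few of the small ones. In the baseline KO comparison the false calls were above the nominal share. They were slightly above it for the interaction and for STZ against baseline in controls.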

Additional observations from a re-analysis of the deposited data

How the results depend on the processing

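Lpcat4 kept its direction and its call in KO against control in all alternatives tried, 13 after STZ (log2 fold change 2.86 to 2.97) and 14 at baseline (2.11 to 2.27), and Mboat2 in all 13 after STZ (2.07 to 2.25). These alternatives are not all separate checks. After STZ only the second KO library was female, so the sex covariate gave the same log2 fold changes as leaving that library out. Fits without the low-count filter gave the same log2 fold changes as the fit reported. At baseline the number of the 7 genes called fell to 1, Lpcat4, with the immune marker covariate, with the sex covariate, and with each library left out (1 to 1). For STZ against baseline in KO glomeruli, 2 genes were called, against 0 with the immune covariate, 1 with the sex covariate, 0 with only the 6 libraries of the genotype (an alternative chosen after seeing the data), 0 to 1 with a library left out, and 3 with DESeq2 or the tubule covariate, which added Lpcat1. For the interaction DESeq2 called 1 gene. With the first number of the baseline titles (10 or 11, meaning not given) as a covariate, both genes stayed called at baseline (adjusted p 0.00651 for Lpcat4 and 0.045 for Mboat2, edgeR). In controls none was called in any of 13 alternatives. The causes were not tested.

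Only uncalled values changed sign. In KO against control, Lpcat2 at baseline was at 0.08 with the sex covariate and ran from -0.58 to 0.85 with a library left out, and in the same way Lpcat1 ran from -0.29 to 0.05 after STZ and -0.17 to 0.12 at baseline, and Mboat1 from -0.04 to 0.42 after STZ. In controls, STZ against baseline, Mboat7 was at 0.04 with the immune covariate, and Mboat2 ran from -0.04 to 0.14 with a library left out. In KO glomeruli, STZ against baseline, the tubule covariate gave 0.08 for Lpcat3 and 0.01 for Mboat7, the immune covariate 0.02 for Lpcat3, 0.17 for Mboat1 and 0.17 for Mboat7, and the sex covariate -0.01 for Lpcat2. With a library left out they ran from -0.04 to 0.70 for Lpcat2, -0.20 to 0.08 for Lpcat3, -0.34 to 0.01 for Mboat1 and -0.13 to 0.06 for Mboat7. The interaction ran from -0.30 to 0.05 for Lpcat1 and -0.10 to 0.20 for Lpcat3.

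Over all genes, the alternatives called 40 to 566 for KO against control after STZ (175 in the fit reported), 4 to 222 at baseline (31), 24 to 794 for STZ against baseline in KO (251), 17 to 561 in controls (69) and 0 to 31 for the interaction (1). No paired analysis was possible because the replicate numbers follow the order of deposit, and the only number shared across genotypes, the first of the baseline titles, is the same for 2 of the 3 mice in each group. Nothing says that the mice of a group were handled apart, so p-values measure the spread between these libraries. Lpcat2 and Mboat1, with the lowest counts, had the widest errors in most comparisons.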

Other observations

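Of the 12 libraries, 5 came from females and 7 from males, as read from Xist and Ddx3y, and the sexes were unevenly placed, with 1 female of 3 in KO and 0 of 3 in control glomeruli after STZ and 2 of 3 in each baseline group. Lpcat2 stood at 2.56 to 4.63 CPM in the 5 female libraries (median 3.14) and 5.22 to 13.2 CPM in the 7 male libraries (median 10.1), with no overlap. This split was noticed in the data and was not tested, and sex goes with treatment in these libraries. The share of all genes that split the sexes in this way was not counted. With sex in the fit, the log2 fold change of Lpcat2 for STZ against baseline was -0.01 in KO and 0.26 in control glomeruli, against 0.45 and 0.82 without it.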
